A study of Homo sapiens with 8 samples.

Results

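Ribosome biogenesis genes, 50 in number, were followed in NALM6 cells, a human precursor B-cell leukaemia line, after induction of the chromatin protein HMGN1. The 50 are a chosen list of nucleolar and ribosome assembly genes, found in the tables by gene symbol, with the transcript row of highest mean kept for each gene. All 50 of the 50 were found among the 27424 genes of the all-read table and 49 among the 6993 genes of the converted-read table, where UTP15 was not listed. RNA made in a labelling window was read by SLAM-seq, in which 4-thiouridine in new RNA is seen as T-to-C conversions. Induced mutant cells (2 libraries, A and B) carried an inducible HMGN1 S20,24E allele, a mutant known for weakened binding to nucleosomes, and received 100 ng/ml doxycycline for 6 h. Induced wild type cells (3 libraries, A to C) carried inducible wild-type HMGN1 and received the same doxycycline. Vehicle cells (3 libraries, A to C) were of the wild-type line and received vehicle for 6 h. All 8 libraries shared the 4-thiouridine at 100 µM for the final 5 h and 4 µg of input RNA. No vehicle library of the mutant line was analysed here, so that mutant line and doxycycline cannot be told apart against vehicle, and HMGN1 and doxycycline cannot be told apart within the wild-type line. The labels do not say whether a line is a single clone.

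Ribosomes are assembled in the nucleolus, where RNA polymerase I transcribes the rRNA precursor. Box C/D and box H/ACA ribonucleoproteins modify the precursor, and separate sets of assembly factors fold and trim the small and the large subunit before export. These genes are known to be highly active in proliferating cells, leukaemia lines included, and many carry the letters CACGTG, called an E-box, near their start.

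Many of the members' promoters hold that motif. Windows of 30 bases around it are shown for 8 members, drawn from every role but RNA polymerase I and its factors. In that role the motif was not found in the promoter windows of POLR1A, POLR1B, POLR1C, RRN3 and UBTF, and POLR1E had no promoter entry. CACGTG reads the same on both strands, so that a single search covers both. It was found in 21 of 54 RefSeq promoter windows (250 bases before the annotated start and 50 from it), which cover 43 of the 50 members, or 38.9% of windows. The share was 7.26% of the 35116 windows of all genes, 9.96% of the 9085 windows of genes with a mean of at least 5 CPM, and 22% of 109 windows of further pathway genes. Each window is 5′ to 3′ in RefSeq letters (GRCh38.p14), with the motif in capitals.
NOP10, chr15:34343130-34343159, minus strand: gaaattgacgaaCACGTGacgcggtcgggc
NAT10, chr11:34105602-34105631, plus strand: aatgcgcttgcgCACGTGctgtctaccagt
UTP20, chr12:101280083-101280112, plus strand: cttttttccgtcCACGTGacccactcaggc
RRP9, chr3:51941892-51941921, minus strand: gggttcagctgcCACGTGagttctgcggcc
DDX21, chr10:68956604-68956633, plus strand: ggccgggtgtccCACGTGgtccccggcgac
LYAR, chr4:4290068-4290097, minus strand: cggcggcgagtcCACGTGctccccgcggcc
FBL, chr19:39846356-39846385, minus strand: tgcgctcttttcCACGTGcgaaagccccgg
PES1, chr22:30591880-30591909, minus strand: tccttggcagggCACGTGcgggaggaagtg
Counted from +1 at the annotated start, with -1 for the base before it, the first motif base lies at -11 in NOP10, -15 in NAT10, -10 in UTP20, -5 in RRP9, -31 in DDX21, -64 in LYAR, +7 in FBL and +14 in PES1. The 8 shown do not stand for the positions of all sites. Elsewhere the first motif base lies at +2 in PWP2, +4 in WDR43, +7 in GNL3 and +13 in NLE1. It lies at +15 in MRTO4, +16 in NOP14, +28 in MYBBP1A, +29 in BYSL, +32 in GAR1 and +36 in NOP2. EBNA1BP2 has it at +43 and -237, IMP4 at +16 and -203, and NOP10 has a further site at -170. A match is a description of the letters in the window and shows no binding. The 20 members with the motif had a median vehicle conversion rate of 7.25%, from 1.66% to 9.79%, and the 23 members with an entry but no motif had 7.40%, from 1.38% to 9.54%.

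The depth of the libraries, recovered from the CPM steps, ran from 7.99 to 17.7 M reads. HMGN1 stood at 223 and 199.5 CPM in induced mutant, at 252, 217 and 317 CPM in induced wild type, and at 191, 153 and 145 CPM in vehicle, and every induced library lay above every vehicle library. The precursor B-cell markers CD79A, CD79B, VPREB1, PAX5, MME and DNTT lay between 35.5 and 402 CPM over the 8 libraries. The T-cell markers CD3D, CD3E and CD2 reached at most 0.0964 CPM and the erythroid marker HBB was at 0, while among myeloid markers CSF1R lay between 338 and 512 CPM and CD14, LYZ and MPO reached at most 2.22 CPM. The median conversion rate of 8656 genes ran from 4.94% in vehicle A to 7.33% in induced wild type C, so that conversion was compared after setting the median of each library to the same value. In bulk RNA a change in the share of cells and a change in RNA per cell cannot be told apart. The labels call the replicates biological, and the p-values measure only the spread between these libraries.

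No member passed in induced mutant against vehicle in any of the 3 measures, by limma with Benjamini-Hochberg adjustment over all genes at 0.05. In all reads, written as log2(CPM + 1), the 50 members had a median difference of 0.01, with 26 above 0, against -0.04 over 12414 genes. Without vehicle A 9 were above 0 with a median of -0.09, against -0.15 over all genes. With edgeR on TMM-scaled reads 35 were, with a median of 0.04, against -0.02 over all genes. The percentage called over all genes was 0.0322. POLR1A, which encodes the catalytic subunit of RNA polymerase I, had the highest difference. It stood at 29.1 and 15.9 CPM in induced mutant, against 9.11, 22.5 and 21 CPM in vehicle, a log2 difference of 0.38 (SE 0.42, limma adjusted p = 0.9999). The groups overlapped, and vehicle A alone was low. PPAN, a large subunit assembly factor, stood at 26.6 and 26.4 CPM in induced mutant, against 18.1, 23.1 and 20.7 CPM in vehicle (log2 difference 0.35, 95% interval -0.12 to 0.83). Both mutant libraries lay above all 3 vehicle libraries for PPAN, and so did those of MRTO4 and BYSL, so that 3 of 50 members were higher without overlap while 4.58% of all genes were. NPM1, the nucleolar chaperone nucleophosmin, was the only member lower without overlap, at 314 and 348 CPM in induced mutant, against 423, 367 and 413 CPM in vehicle (log2 difference -0.27, 95% interval -0.64 to 0.09), and 11.4% of all genes were lower without overlap. The most negative differences were those of NHP2 (-0.31) and DDX18 (-0.28), whose groups overlapped. DDX18, a helicase of large subunit assembly, stood at 26.4 and 23.4 CPM in induced mutant, against 24.6, 32.6 and 34.5 CPM in vehicle, and 1 of the vehicle libraries, A, lay between the mutant values. At an unadjusted p under 0.05 limma listed 467 of the 12414 genes and 0 of the 50 members.

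In converted reads, taken as log2(FPKM + 1) where the mean was at least 1, 42 members were tested and their median log2 difference between induced mutant and vehicle was 0.00, with 22 above 0, against 0.17 over 5737 genes. With library medians set equal 11 were above 0, without vehicle A 10, without mutant A 17 and without mutant B 29. The members' medians in these fits were -0.27, -0.19, -0.16 and 0.23, against -0.10, 0.01, 0.06 and 0.33 over all genes. The percentage called over all genes was 0.401, and none of the called genes was a member. At an unadjusted p under 0.05 limma listed 678 of the 5737 genes and 1 of the 42 members. WDR43, a small subunit processome protein, stood at 6.82 and 8.15 FPKM in induced mutant, against 1.06, 4.76 and 5.79 FPKM in vehicle, a log2 difference of 0.97 (SE 0.49, limma adjusted p = 0.464). GNL3L, a nucleolar GTPase, stood at 3.57 and 2.92 FPKM in induced mutant, against 1.05, 1.26 and 1.4 FPKM in vehicle (log2 difference 0.92, limma adjusted p = 0.419, the smallest of the 42). Both genes were higher in each mutant library than in each vehicle library. With FBL, by 1.79 against 1.78 FPKM at the closest, and PPAN this held for 4 members, or 9.52%, against 20.4% of all genes. RRP9, the protein that marks U3 ribonucleoproteins, stood at 2.38 and 2.59 FPKM in induced mutant, against 6.28, 5.1 and 3.51 FPKM in vehicle (log2 difference -0.75, 95% interval -1.55 to 0.06). IMP4, a U3-associated processome protein, stood at 0.89 and 0.66 FPKM in induced mutant, against 1.03, 1.9 and 1.74 FPKM in vehicle (log2 difference -0.51). RRP9 and IMP4 were lower without overlap together with MYBBP1A (-0.33), and 3 members make 7.14%, against 7.81% of all genes.

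In the conversion rate no member passed in induced mutant against vehicle, and limma called 0% of 8656 genes. At an unadjusted p under 0.05 limma listed 694 of the 8656 genes and 3 of the 50 members. Written as log2(percent + 0.1) with library medians set equal, 34 of 50 members lay below 0 and 16 above, with a median of -0.09 against -0.01 over all genes. Without mutant A 28 lay below and 22 above, with a median of -0.03. Without vehicle A 30 lay below, with a median of -0.05, and with library medians left unequal 27 lay below and 23 above, with a median of -0.02 against 0.06 over all genes. Relative to the library median, 12 members were lower in both mutant libraries than in all vehicle libraries, or 24% against 12.9% of all genes, and 1 was higher (FBL, 2% against 10.3%). The 12 were UTP15, GAR1, LYAR, NOP58, IMP4, GNL3, NOP56, TSR1, NAT10, NOLC1, DKC1 and NCL, named after their values were seen. UTP15, a processome protein, had conversion rates of 6.05 and 4.98% in induced mutant, against 9.64, 7.01 and 7.93% in vehicle. Divided by the library median these were 0.887 and 0.915 in induced mutant, against 1.95, 1.2 and 1.18 in vehicle, with vehicle A highest. Its log2 difference was -0.63 (SE 0.27, limma adjusted p = 0.617), on the lowest read level of the 50, 5.83 CPM in vehicle. GAR1, a core protein of box H/ACA particles, had 6.1 and 3.43% in induced mutant, against 4.82, 6.71 and 6.37% in vehicle (log2 difference -0.43, 95% interval -0.87 to 0.01). The percentages overlapped, and divided by the library median they were 0.894 and 0.631 in induced mutant, against 0.976, 1.15 and 0.944 in vehicle. IMP4 had the smallest adjusted p of the 50, 0.545 by limma, with 7.67 and 5.84% in induced mutant, against 6.59, 7.94 and 8.66% in vehicle (log2 difference -0.26). Divided by the library median IMP4 stood at 1.12 and 1.07 in induced mutant, against 1.34, 1.35 and 1.28 in vehicle. At the other end HEATR1, a large scaffold of the processome, had 5.04 and 4.63% in induced mutant, against 2.41, 3.8 and 5.12% in vehicle (log2 difference 0.34, 95% interval -0.07 to 0.75), where the groups overlapped and vehicle A was lowest.

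In induced wild type against vehicle, which differ by doxycycline in the same line, no member passed either. In all reads the median log2 difference of the 50 was 0.07, with 35 above 0, against 0.09 over all genes. This direction turned with scaling and with single libraries: 15 were above 0 with library medians set equal, 21 by edgeR on TMM-scaled reads, 18 by DESeq2, 16 without induced wild type C and 7 without vehicle A. The all-gene median was -0.05 with library medians set equal, -0.02 without induced wild type C and -0.04 without vehicle A. Limma called 0% of genes, with 116 of 12414 genes and 0 members at an unadjusted p under 0.05. None of the 50 separated in either direction, where 2.53% of all genes were higher and 1.49% lower without overlap. POLR1A again had the highest difference, 0.44 (95% interval -0.38 to 1.27), with 19.2, 17.5 and 34.1 CPM in induced wild type, against 9.11, 22.5 and 21 CPM in vehicle. UTP20, a processome scaffold, stood at 9.11, 8.77 and 14.6 CPM in induced wild type, against 5.96, 8.07 and 9.52 CPM in vehicle (log2 difference 0.41). The lowest were NHP2, of box H/ACA particles, at 166, 175 and 112 CPM in induced wild type, against 269, 167 and 146 CPM in vehicle (log2 difference -0.33), and FBL (-0.25). For POLR1A and UTP20 induced wild type C was highest and vehicle A lowest of all 6 libraries, and for NHP2 and FBL the order of these 2 libraries was the opposite.

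Converted reads of the same comparison had a median log2 difference of 0.18 over 42 members, 31 of them above 0, against 0.23 over all genes. With library medians set equal 10 were above 0, and 18 were when vehicle A was left out and 24 when induced wild type C was. Over all genes the medians in these fits were -0.11, 0.07 and 0.09. Limma called 0% of genes, with 455 of 5737 genes and 0 of 42 members at an unadjusted p under 0.05, and 0 members separated, where 10.7% of all genes were higher and 1.26% lower without overlap. NOP2, an rRNA methyltransferase of the large subunit, stood at 2.88, 3.89 and 7.55 FPKM in induced wild type, against 0, 6.4 and 4.4 FPKM in vehicle (log2 difference 0.67, 95% interval -0.62 to 1.97). It was listed at 0 in vehicle A, and the other 2 vehicle libraries lay within the range of induced wild type. WDR43 stood at 4.66, 3.9 and 10.2 FPKM in induced wild type and at 1.06, 4.76 and 5.79 FPKM in vehicle (log2 difference 0.65). EBNA1BP2, of large subunit assembly, stood at 5.11, 3.41 and 5.31 FPKM in induced wild type and 7.87, 6.67 and 4.93 FPKM in vehicle (log2 difference -0.42), and IMP4 had 0.89, 0.49 and 1.43 FPKM in induced wild type (log2 difference -0.41). The groups overlapped in all 4 genes. In the conversion rate limma called 0% of genes, with 398 of 8656 genes and 0 members at an unadjusted p under 0.05, and 19 of 50 members lay above 0 with a median of -0.03 against 0.00 over all genes. Without induced wild type C 30 lay above 0, without vehicle A 27, and with library medians left unequal 45. With medians left unequal the members' median was 0.12, against 0.15 over all genes. LYAR, a zinc finger protein of the nucleolus, TSR1 and NOLC1 were lower in all induced wild type libraries than in all vehicle libraries relative to the library median, 3 members or 6% against 4.56% of all genes, and no member was higher, against 4.76%. HEATR1 had the highest difference in conversion rate here as well, 0.35 (95% interval -0.02 to 0.72), with 6.0, 4.02 and 5.6% in induced wild type, and UTP15 the lowest, -0.40, with 9.55, 4.06 and 8.13%. GNL3L converted at 4.36, 4.68 and 5.84% in induced wild type, against 3.79, 3.36 and 4.06% in vehicle (log2 difference 0.25), and LYAR at 9.7, 7.71 and 10.0% in induced wild type, against 9.36, 9.01 and 10.3% in vehicle (log2 difference -0.21).

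Induced mutant was set against induced wild type under the same doxycycline, and here too no member passed. The alleles are carried by different lines, so that allele and line cannot be told apart in this comparison. In all reads the median log2 difference of the 50 was -0.04, with 23 above 0, against -0.12 over all genes. The direction turned with scaling: 39 were above 0 with library medians set equal (median 0.10, against 0.02 over all genes), by edgeR with either scaling and by DESeq2. There were 32 without induced wild type C, against 9 without induced wild type B, where the medians over all genes were -0.02 and -0.24. Of all genes limma called 0.0322%. At an unadjusted p under 0.05 there were 341 genes and 0 members. MRTO4, which helps to build the ribosomal stalk, stood at 56.7 and 63.5 CPM in induced mutant, against 52.8, 44.5 and 49.7 CPM in induced wild type (log2 difference 0.29, SE 0.15, limma adjusted p = 0.9996). It was the only member higher without overlap, 2% against 1.8% of all genes. MYBBP1A, a nucleolar protein that binds transcription factors, stood at 41.5 and 36.6 CPM in induced mutant, against 50.6, 43.7 and 52.8 CPM in induced wild type (log2 difference -0.32), and was the only member lower without overlap, 2% against 13.2% of all genes. DDX21, an RNA helicase, had the most negative difference (-0.38, 95% interval -1.40 to 0.63), with 42.9 and 28.8 CPM in induced mutant, against 42.7, 26.8 and 85.4 CPM in induced wild type, where library C alone was high.

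In converted reads of the same comparison the median log2 difference was -0.13 over 42 members, against -0.04 over all genes. Of the 42 members 15 were above 0. Without mutant B 25 were above 0, without induced wild type C 21, and without mutant A 10. Over all genes the medians in these fits were 0.11, 0.09 and -0.17. Limma called 0% of genes, with 169 of 5737 genes and 0 members at an unadjusted p under 0.05. NOB1, the endonuclease that finishes the small subunit rRNA, stood at 2.06 and 1.3 FPKM in induced mutant, against 2.88, 3.89 and 4.69 FPKM in induced wild type (log2 difference -0.84, 95% interval -1.90 to 0.21). With DKC1, NOP56, RRP9 and NOP14 it made 5 members lower without overlap, 11.9% against 11.8% of all genes. GNL3L was the only member higher without overlap, 2.38% against 5.18% of all genes, with 3.57 and 2.92 FPKM in induced mutant, against 0.88, 1.46 and 2.47 FPKM in induced wild type (log2 difference 0.75). POLR1E stood at 3.27 and 0.98 FPKM in induced mutant, against 0.66, 0.97 and 1.43 FPKM in induced wild type (log2 difference 0.54), where mutant A alone was high. DDX21 had 2.68 and 0.65 FPKM in induced mutant, against 2.47, 1.46 and 4.75 FPKM in induced wild type (log2 difference -0.57), with overlap. In the conversion rate limma called 0% of genes, with 430 of 8656 genes and 1 member at an unadjusted p under 0.05. Of the 50 members, 36 lay below 0 and 14 above, with a median of -0.06 against -0.01 over all genes. Without mutant A 28 lay below with a median of -0.02, and without induced wild type A or B 30 lay below in each case, with medians of -0.03 and -0.02. Relative to the library median, 8 members were lower without overlap, 16% against 11.5% of all genes, and 3 were higher, 6% against 9.59%. POLR1E, a subunit particular to RNA polymerase I, had 8.24 and 6.26% in induced mutant, against 5.08, 4.97 and 7.25% in induced wild type (log2 difference 0.41, limma adjusted p = 0.982). WDR75, of the processome, had 4.61 and 5.01% in induced mutant, against 7.24, 5.41 and 6.59% in induced wild type (log2 difference -0.32), and GAR1 had 6.39, 6.04 and 5.42% in induced wild type (log2 difference -0.29). DDX18 had 5.19 and 4.58% in induced mutant, against 4.98, 3.49 and 5.6% in induced wild type (log2 difference 0.16). The 3 comparisons share libraries, so that their differences are not independent of each other.

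**Figure D1:**
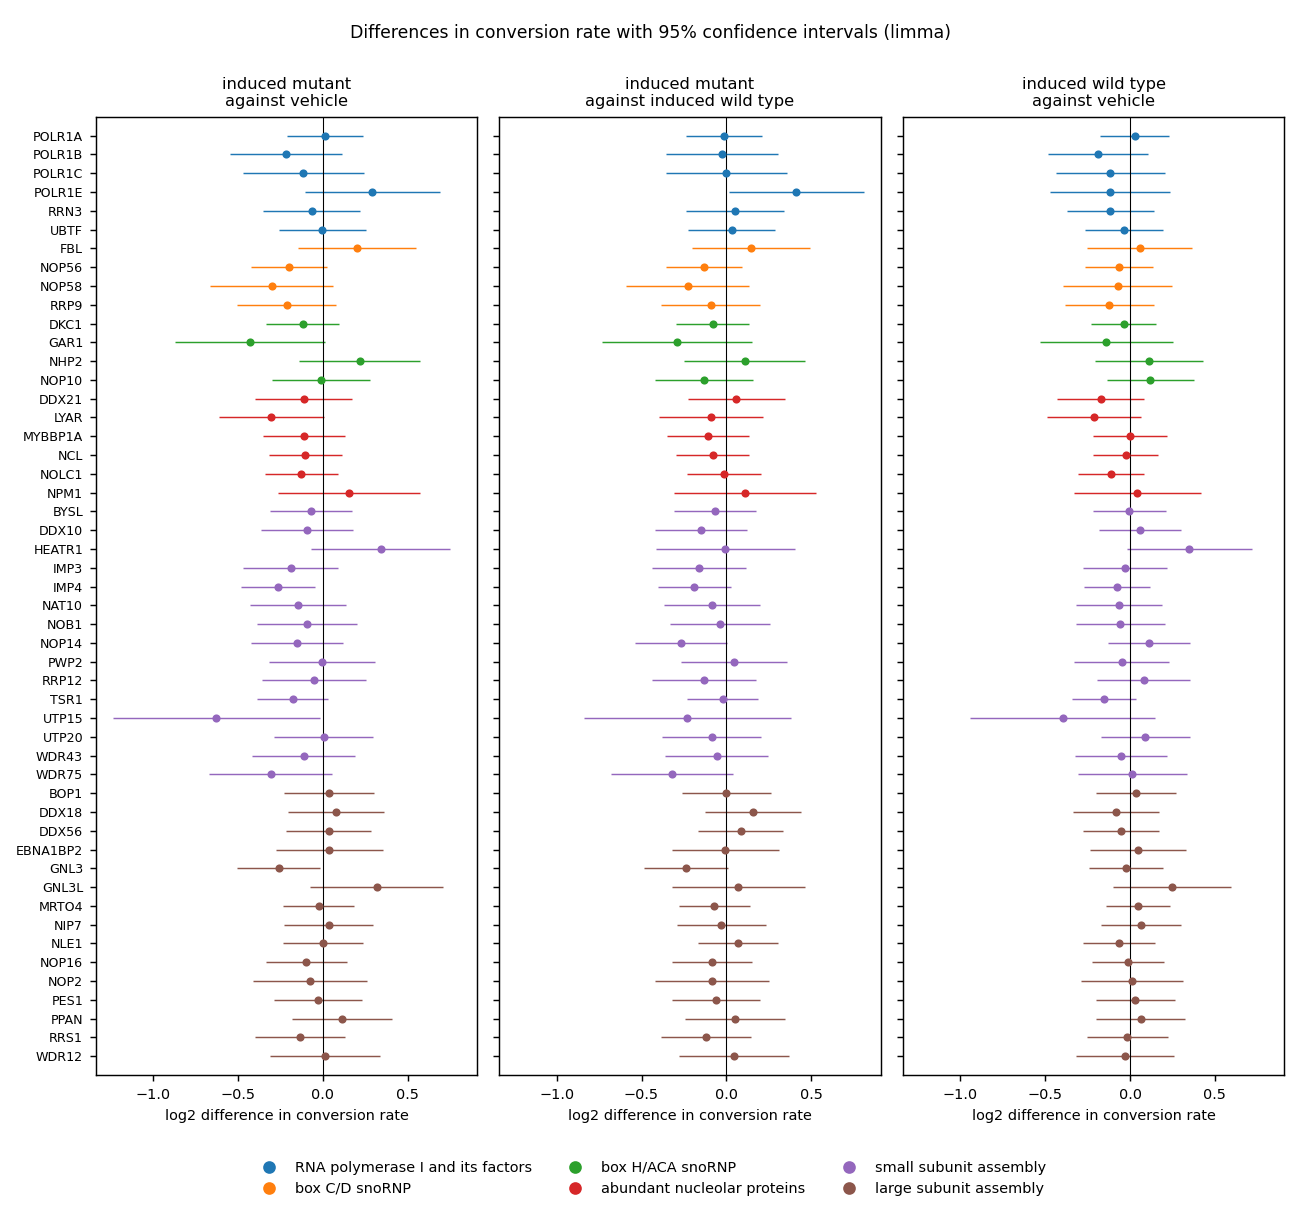
Log2 difference in conversion rate (x axis, library medians set equal) for the 50 members (y axis, by role), with points for limma estimates and bars for 95% confidence intervals, in 3 panels: induced mutant against vehicle, induced mutant against induced wild type, and induced wild type against vehicle. Most small subunit assembly members lie left of 0 in the first 2 panels (2 and 1 of 15 above 0). Over all genes 47.3% and 47.0% were above 0 there, and no member passed after adjustment.

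The median difference in conversion rate lay below 0 in induced mutant against vehicle for every role but large subunit assembly. It was -0.03 for RNA polymerase I genes with 2 of 6 above 0, -0.21 for box C/D with 1 of 4, -0.06 for box H/ACA with 1 of 4 and -0.11 for the abundant nucleolar proteins with 1 of 6. Of the 15 small subunit assembly genes, 2 lay above 0 in induced mutant against vehicle, 1 in induced mutant against induced wild type and 6 in induced wild type against vehicle, with median log2 differences of -0.11, -0.09 and -0.03. The 15 large subunit assembly genes had 9, 6 and 8 above 0 in the same comparisons, with medians of 0.01, -0.01 and 0.01. Over all genes 47.3%, 47.0% and 50.2% lay above 0 in these comparisons. Of the 106 further pathway genes 32, 32 and 35 did, so that a lean below 0 was not particular to small subunit genes. Without mutant A 5 of the 15 small subunit genes lay above 0 in each comparison with induced mutant. The difference between the roles was not tested. Divided by the library median, the median small subunit gene converted at 1.12 and 1.17 in induced mutant, against 1.34, 1.33 and 1.26 in induced wild type and 1.36, 1.33 and 1.28 in vehicle (libraries in the order A to C). Both mutant libraries were lowest. Over all 50 members this ratio was 1.13 and 1.16 in induced mutant, against 1.21, 1.20 and 1.18 in induced wild type and 1.24, 1.22 and 1.20 in vehicle, and both mutant libraries were again lowest. Mutant B and induced wild type B had nearly equal library medians of 5.44% and 5.41%, and ratios of 1.16 and 1.20. Their upper quartiles over all genes were 7.06% and 7.20%, and whether the ratio follows the level or the spread of a library was not tested. The 106 further pathway genes had 1.08 and 1.14 in induced mutant, against 1.19, 1.22 and 1.11 in induced wild type and 1.22, 1.18 and 1.15 in vehicle, and here induced wild type C lay within the range of the mutant libraries.

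**Figure D2:**
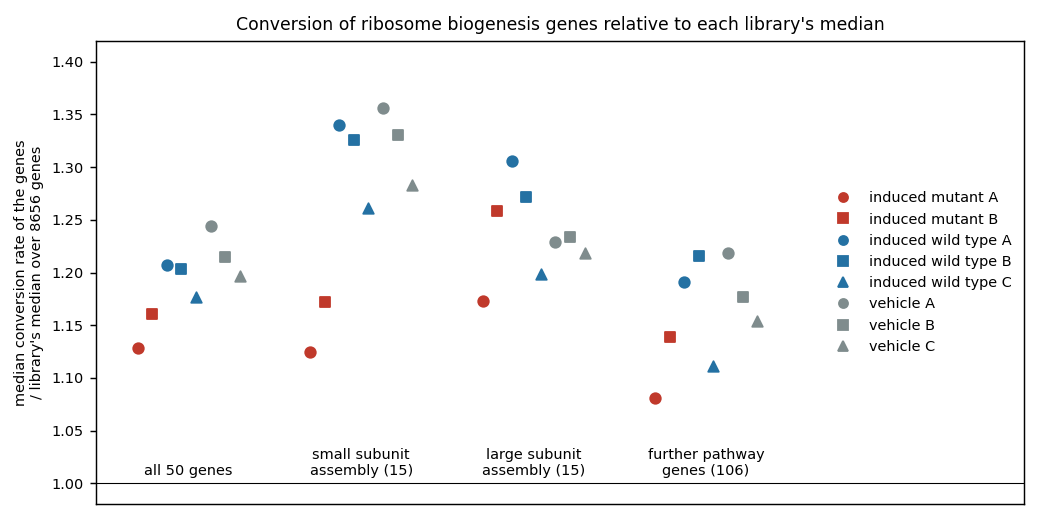
Median conversion rate of a gene group divided by the library's median over 8656 genes (y axis, from 0.98), for all 50 members, the 15 small subunit genes, the 15 large subunit genes and 106 further pathway genes, with 1 point per library. The mutant libraries are lowest for all 50 members (1.13 and 1.16) and for the small subunit genes (1.12 and 1.17), while for the large subunit genes the groups overlap.

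The genes of RNA polymerase I and its factors had vehicle means of 10.0 to 28.6 CPM apart from UBTF, at 111 CPM. POLR1A, POLR1B, POLR1C and POLR1E encode subunits of the enzyme, of which POLR1C is shared with RNA polymerase III. RRN3 links the enzyme to its promoter and UBTF is the HMG-box protein that holds rDNA open. UBTF stood at 113 and 98.3 CPM in induced mutant, 120.5, 105 and 151 CPM in induced wild type and 68.6, 128 and 136 CPM in vehicle, with vehicle A lowest. If whole transcripts were counted, which is not given, UBTF reached 23.7 ± 7.86 CPM per kilobase of exon in vehicle. POLR1A then reached 1.38 ± 0.575 CPM (SD, n = 3 each), the lowest of the 6. In induced mutant against induced wild type in all reads their log2 differences had a median of -0.09 and a range of -0.23 to -0.01, while the median over all genes was -0.12, and 4 of the 6 were above 0 with library medians set equal, by edgeR with either scaling and by DESeq2. Their conversion rates in vehicle ran from 5.61 ± 0.742% in POLR1E to 9.54 ± 0.667% in POLR1C. For POLR1C a row without a symbol in the table had a mean of 49.1 CPM, against 27.8 CPM in the row used. RRN3 was below the filter in converted reads, and the vehicle values of POLR1E were 1.04, 0.31 and 0.35 FPKM and those of POLR1B 0, 1.59 and 1.04 FPKM. POLR1B stood at 0.88 and 1.63 FPKM in induced mutant and 1.12, 0.48 and 2.46 FPKM in induced wild type, which overlapped with vehicle.

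The box C/D and box H/ACA proteins ran from slow to fast conversion, 1.66% to 8.55% in vehicle among the 4 of box C/D and 2.09% to 6.49% among the 4 of box H/ACA. FBL, the methyltransferase fibrillarin, stood at 267 and 419 CPM in induced mutant, 333, 372 and 261 CPM in induced wild type and 522, 339 and 307 CPM in vehicle. Vehicle A was highest and induced wild type C lowest. Its conversion rate was 2.31 and 1.73% in induced mutant, 2.0, 1.56 and 2.23% in induced wild type and 1.4, 1.59 and 2.0% in vehicle, below all members but NPM1 in vehicle, although relative to the library median both mutant libraries lay above all others. NOP56 and NOP58, the core proteins that flank the guide RNA with FBL, converted faster, at 8.5 ± 1.04% and 5.04 ± 0.636% in vehicle, and RRP9 at 8.55 ± 0.541%. In converted reads NOP56 had 23.7 and 23.8 FPKM in induced mutant, 29.8, 30.8 and 35.6 FPKM in induced wild type and 23.6, 33.5 and 33.9 FPKM in vehicle. The mutant values lay below all of induced wild type but not below vehicle A. DKC1, the pseudouridine synthase dyskerin, stood at 81.5 and 86.5 CPM in induced mutant, 83.8, 72.4 and 93 CPM in induced wild type and 65.6, 89.3 and 95.8 CPM in vehicle, and converted at 6.24 ± 1.04% (SD, n = 2), 7.01 ± 1.29% and 6.49 ± 1.22% (n = 3 each) in the same groups. Its partner NHP2 stood at 119 and 190.3 CPM in induced mutant and converted at 2.93 and 2.14% in induced mutant, 2.6, 2.02 and 2.8% in induced wild type and 1.54, 2.01 and 2.71% in vehicle, below every value of DKC1. NOP10 and GAR1 converted at 3.99 ± 0.989% and 5.97 ± 1.01% in vehicle. GAR1 was among the 3 lowest members in all reads, at 10.7 and 9.14 CPM in induced mutant, 10.4, 8.39 and 10.3 CPM in induced wild type and 7.54, 7.03 and 9.69 CPM in vehicle, all overlapping.

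The abundant nucleolar proteins included the most highly read member and the slowest converting one. NCL, nucleolin, an RNA-binding protein of the nucleolus, stood at 633 and 690.0 CPM in induced mutant, 657, 632 and 772 CPM in induced wild type and 431, 669 and 731 CPM in vehicle, with vehicle A lowest. Its conversion rate was 6.87 and 5.81% in induced mutant, 7.36, 6.06 and 7.86% in induced wild type and 5.34, 6.86 and 7.43% in vehicle. NPM1 converted at 1.89 and 1.34% in induced mutant, 1.56, 1.19 and 2.01% in induced wild type and 1.08, 1.27 and 1.79% in vehicle, the lowest of the 50 in vehicle. Its reads are uncertain, since GENCODE 29 lists 45 pseudogene copies, more than for any other member. In converted reads NPM1 stood at 15.4 and 18.2 FPKM in induced mutant, 23.8, 16.6 and 19.7 FPKM in induced wild type and 22.5, 14.6 and 24.2 FPKM in vehicle, with overlap. Per kilobase of exon FBL, NPM1 and NHP2 led the 50 with 336 ± 100.2, 324 ± 23.9 and 224 ± 76.3 CPM in vehicle (SD, n = 3 each), where FBL and NPM1 differed by less than the SD of FBL, and UTP20 was last with 0.87 ± 0.198 CPM. This order assumes that whole transcripts were counted, which is not given. NOLC1, a chaperone of small nucleolar ribonucleoproteins, converted at 6.29 ± 1.12% in vehicle, MYBBP1A at 6.48 ± 0.757%, DDX21 at 6.32 ± 0.235% and LYAR at 9.54 ± 0.648%.

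Among small subunit assembly genes HEATR1 stood at 20.2 and 16.5 CPM in induced mutant, 19.2, 16.3 and 30.4 CPM in induced wild type and 11.1, 19.2 and 25.1 CPM in vehicle, with induced wild type C high and vehicle A low. Its conversion rate, 3.78 ± 1.35% in vehicle, was the lowest of the 15. BYSL, a factor of late small subunit assembly, converted fastest of the 15, at 10.6 and 8.81% in induced mutant, 12.2, 8.62 and 11.7% in induced wild type and 7.87, 10.5 and 11% in vehicle. The acetyltransferase NAT10 converted at 5.91 ± 1.03% in vehicle, the helicase DDX10 at 7.75 ± 1.04% and the export factor RRP12 at 8.05 ± 0.735%. PWP2, WDR43 and IMP3, of the processome, converted at 8.92 ± 0.796%, 9.29 ± 1.76% and 8.78 ± 0.325%. UTP20 stood at 10.0 and 7.58 CPM in induced mutant, with mutant B between the vehicle libraries. UTP15 was the lowest of the 50 in all reads, at 5.3 and 4.05 CPM in induced mutant, 5.42, 4.51 and 8.84 CPM in induced wild type and 4.84, 5.73 and 6.93 CPM in vehicle, and the groups overlapped. NOP14, of the processome, had 13.4 and 14.3 FPKM in induced mutant, 19.1, 17.6 and 18.4 FPKM in induced wild type and 13.6, 12 and 18.6 FPKM in vehicle. TSR1, which acts late in small subunit assembly, was below the filter in converted reads.

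Among large subunit assembly genes PES1, which forms a complex with BOP1 and WDR12, stood at 63.1 and 72.1 CPM in induced mutant, 69.6, 67 and 65.1 CPM in induced wild type and 66.5, 73.4 and 72.2 CPM in vehicle, with all groups overlapping. Its conversion rate was 7.61 ± 0.887% in induced mutant (SD, n = 2), 8.36 ± 0.372% in induced wild type and 7.47 ± 1.36% in vehicle (n = 3 each), while BOP1 converted at 4.42 ± 0.685% and WDR12 at 5.75 ± 1.08% in vehicle. RRS1, which brings a small ribonucleoprotein to the large subunit, had the highest conversion rate of the 50 in vehicle, with 10.6 and 9.31% in induced mutant, 12.2, 10.4 and 11.6% in induced wild type and 8.78, 11.2 and 11.4% in vehicle. NOP2 had 9.19 and 9.76% in induced mutant, 11.1, 10.1 and 10.7% in induced wild type and 8.59, 9.82 and 10.2% in vehicle, and was among the 3 highest. EBNA1BP2 and GNL3L were the lowest of the 15, with 3.43 ± 0.501% and 3.74 ± 0.354% in vehicle, while GNL3, the GTPase nucleostemin and a paralogue of GNL3L, converted at 8.05 ± 1.25%. The helicases DDX18 and DDX56 converted at 4.46 ± 0.886% and 6.92 ± 0.518% in vehicle, and the assembly factors NIP7 and NOP16 at 7.13 ± 0.989% and 7.7 ± 1.04%. WDR12 stood in converted reads at 1.18 and 0.64 FPKM in induced mutant, 0.89, 0.97 and 2.25 FPKM in induced wild type and 0.52, 0.94 and 1.23 FPKM in vehicle.

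The roles were also set side by side in expression levels. In all reads the median log2 difference of induced mutant against vehicle was 0.01 for RNA polymerase I genes, -0.03 for box C/D, 0.00 for box H/ACA, -0.09 for the abundant nucleolar proteins, 0.07 for small subunit and 0.01 for large subunit assembly. In the same order the number above 0 was 3 of 6, 0 of 4, 2 of 4, 2 of 6, 10 of 15 and 9 of 15. Converted reads gave medians of 0.35, -0.16, -0.26, -0.14, 0.16 and 0.08 with 3 of 5, 2 of 4, 0 of 3, 2 of 6, 8 of 12 and 7 of 12 above 0. None of the 3 tested box H/ACA and none of the 4 box C/D genes lay above 0 in converted reads of induced mutant against induced wild type, with medians of -0.38 and -0.27, and no member of either passed. Without vehicle A the roles had 0 of 6, 1 of 4, 2 of 4, 0 of 6, 2 of 15 and 4 of 15 above 0 in all reads of induced mutant against vehicle. The median over all genes was then -0.15. With library medians set equal, 1 of the 4 box C/D genes was above 0 in converted reads of induced mutant against induced wild type, and without mutant A 1 of the 3 box H/ACA genes was.

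The order of conversion rates was largely kept between libraries. Across the 50 members the Spearman rho of the rates between any pair of libraries lay between 0.80 and 0.946, a description of genes that share libraries, and over 8656 genes between 0.86 and 0.952. The members' median in vehicle was 7.18%, that of further pathway genes 6.93% and that of all genes 5.94%. With summed exon length the rates had a rho of 0.04 across the 50, and with intron length a rho of -0.22. Runs of at least 5 C or T letters from an annotated start were found along this order, and 3 are shown in capitals with 12 bases before the start. These lie in 1 of the 2 start windows of NPM1, in FBL, and in NLE1, a large subunit assembly factor that converted at 9.08 ± 1.15% in vehicle. Others lie in 1 of the 2 windows each of EBNA1BP2, DDX21 and IMP4, and in NOB1. Those members converted at 3.43, 6.32, 7.73 and 9.24% in vehicle. The other NPM1 window and that of NHP2, the next lowest member, have 0 such letters at the start. The windows shown were picked after the values were seen.
NPM1, chr5:171387837-171387866, plus strand: ggagcctgcgtcCTTTCCCTggtgtgattc
FBL, chr19:39846362-39846391, minus strand: cgcgcctgcgctCTTTTCCacgtgcgaaag
NLE1, chr17:35142286-35142315, minus strand: ctgtctgccgggCTCTTTCTCCTCCacgtg
A run of at least 5 such letters opened 7 of the 54 windows of members, 13%, and 6.12% of 9085 windows of genes with a mean of at least 5 CPM, searched on the gene's own strand.

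**Figure D3:**
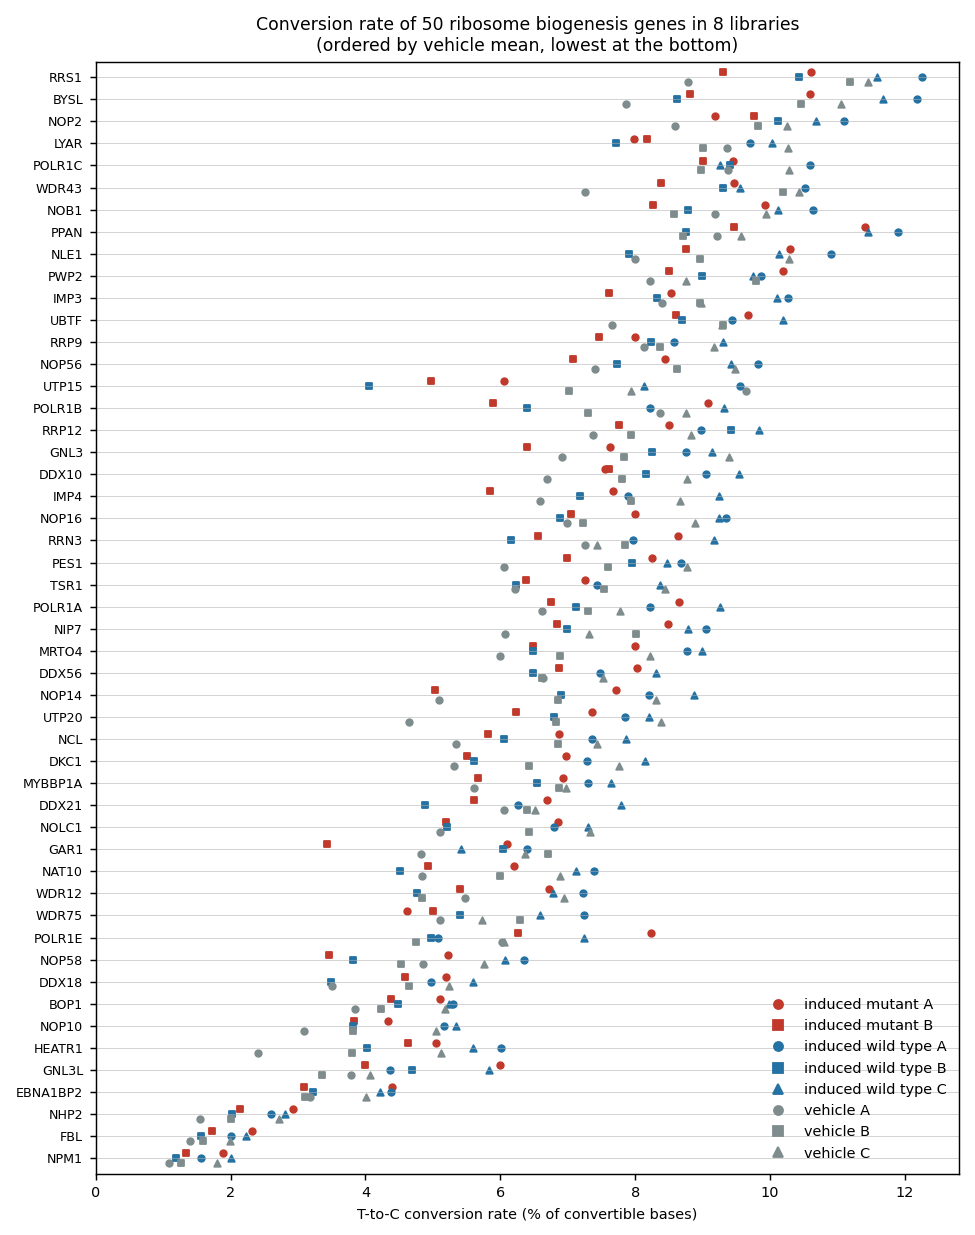
Conversion rate in percent of convertible bases (x axis) for the 50 members (y axis, ordered by vehicle mean), with 1 point per library coloured by group. NPM1, FBL and NHP2 lie near the left edge in all 8 libraries. RRS1, BYSL and NOP2 have the highest vehicle means, though BYSL stood at 7.87% in vehicle A, below UTP15 at 9.64%. UTP15 fell to 4.06% in induced wild type B, and the order was largely but not fully kept between libraries.

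A pattern between libraries ran through the all-read levels. Of the 50 members, 29 were lowest in vehicle A, against 45.7% of all genes, and 26 were highest in induced wild type C, against 53% of all genes. Across the 50 members the ratio of induced wild type C to vehicle A had a Spearman rho of 0.679 with summed exon length, and 0.571 over 8351 genes, and the ratio of vehicle C to vehicle A, within a group, had a rho of 0.687. POLR1A had 3.75 times the CPM in induced wild type C that it had in vehicle A and DDX21 3.6 times, while FBL had 0.499 and NHP2 0.417 times. Of the 25 members with exons over 2378 bases in sum 0 were higher in vehicle A, and of the 25 shorter ones 9 were. Without both libraries the members above 0 in all reads were 9 of 50 in induced mutant against vehicle (median log2 difference -0.09), 7 of 50 in induced wild type against vehicle (-0.17) and 32 of 50 in induced mutant against induced wild type (0.05). With all libraries they were 26, 35 and 23. Over all genes the medians without both libraries were -0.15, -0.13 and -0.02 in the same order of comparisons.

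**Figure D4:**
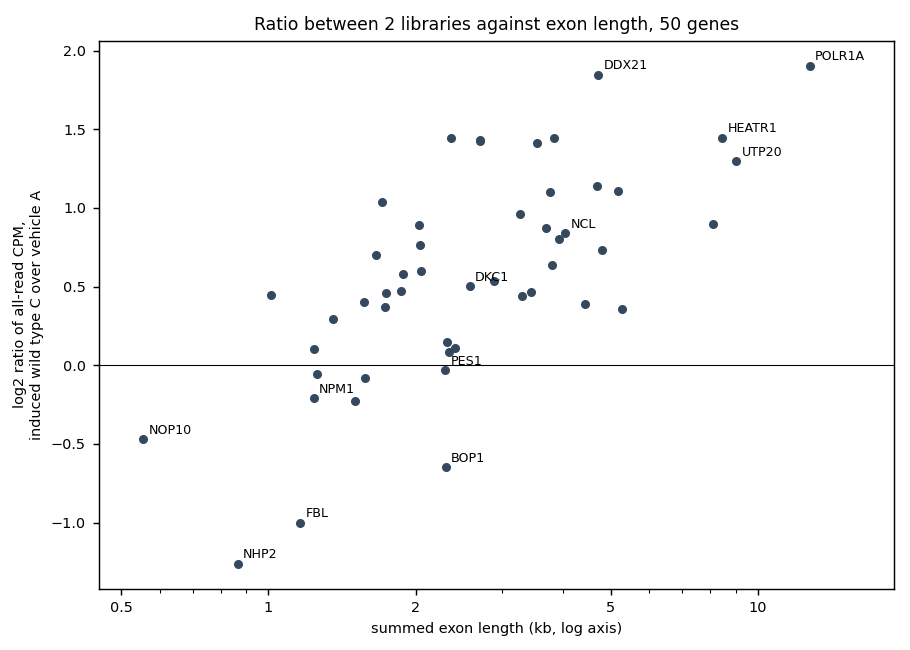
Log2 ratio of all-read CPM in induced wild type C over vehicle A (y axis) against summed exon length in kilobases (x axis, log scale), 1 point per member. Short genes such as NHP2 and FBL lie below 0, and POLR1A and DDX21 lie highest.

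**Figure D5:**
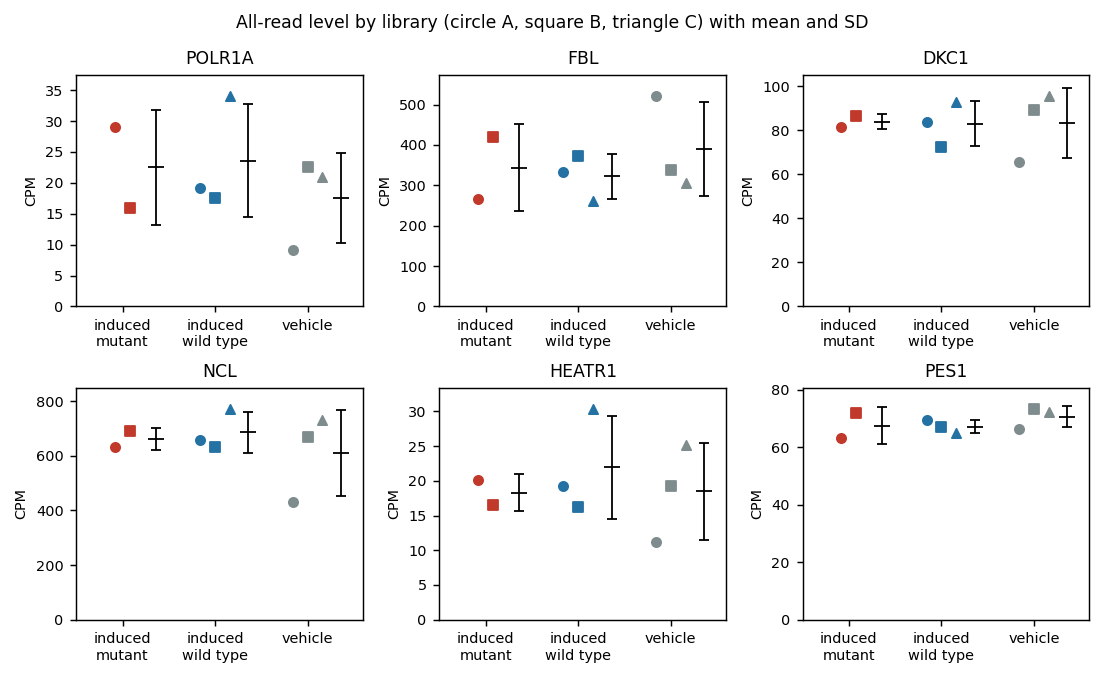
All-read CPM by library for POLR1A, FBL, DKC1, NCL, HEATR1 and PES1, 1 gene of each role, with points for libraries and black bars for mean and SD (2 induced mutant, 3 induced wild type and 3 vehicle libraries). The groups overlap in all 6 genes, and vehicle A is the lowest library for POLR1A, DKC1, NCL and HEATR1 and the highest for FBL.

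Converted FPKM was set against the all-read values of the same members. Across 49 members the Spearman rho between converted FPKM and the product of CPM and conversion rate was 0.36, a description of values from the same libraries. NCL had 44.3 in this product but 3.63 FPKM, a ratio of 0.082, and BOP1 a ratio of 0.126, while HEATR1 had a ratio of 7.03, GAR1 of 5.44 and NOP14 of 5.10. The ratio had a rho of 0.52 with intron length across the 49 and of 0.49 across 6383 genes. RRS1 and IMP3, the members with a single exon, were listed at 0 in all 8 libraries, as were 88 of 96 single-exon genes and 90 of 6287 genes with several exons. Their all-read values were not low, with 25.6 and 41.5 CPM in vehicle. Counts are further uncertain for 9 members with snoRNA genes between their start and end on the same strand, since small RNA inside a gene may share its reads. These are NCL, NOP56, NOP58, DKC1, GNL3, WDR43, TSR1, PPAN and POLR1C. In GENCODE 29, 12 members have pseudogene copies and 21 overlap another coding gene, and the use of strand in counting was not given.

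Of 112 further genes of the pathway, chosen from textbook knowledge of rRNA processing, 111 were found in all reads and 103 in converted reads. None of the 111, 85 and 106 tested in all reads, converted reads and conversion rate passed in any of the 3 comparisons in either direction. PIH1D1, of the chaperone complex that assembles box C/D particles, stood at 2.07 and 4.87 FPKM in induced mutant, against 6.81, 7.92 and 7.88 FPKM in vehicle, a log2 difference of -1.0 (limma adjusted p = 0.261). XRN2, an exonuclease, had 5.33 and 5.2 FPKM in induced mutant and 4.89, 4.4 and 5.74 FPKM in induced wild type, against 0.53, 0.32 and 4.73 FPKM in vehicle, with adjusted p of 0.274 and 0.536 by limma. RRP8, a nucleolar methyltransferase, converted at 8.01 and 8.32% in induced mutant, against 9.08, 11.2 and 12.4% in vehicle (log2 difference -0.47, limma adjusted p = 0.419), and BRIX1, of large subunit assembly, at 7.54 and 5.88% in induced mutant, against 8.48, 7.56 and 9.85% in vehicle (log2 difference -0.43). In all reads the smallest p-values of this comparison were those of PIH1D1 and GLTSCR2, with log2 differences of -0.43 and -0.43 and an adjusted p of 0.9999 each by limma. In the conversion rate 32 of 106 lay above 0 in induced mutant against vehicle, 35 in induced wild type against vehicle and 32 in induced mutant against induced wild type, with median log2 differences of -0.08, -0.06 and -0.06.

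The precision set what could be seen. The 95% interval of a member's log2 difference reached, in the median, to either side by 0.50 in all reads, 0.92 in converted reads and 0.29 in conversion rate for the comparisons with induced mutant, and 0.44, 0.82 and 0.26 for induced wild type against vehicle. Smaller differences lay within these intervals, and the absence of calls does not show that the members behaved alike in the groups.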

How the data were processed

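The 8 SLAM-seq libraries were grouped by their labels, which name a stranded mRNA kit. The build named in the submitters' processing notes was GRCh37, or hg19. Which aligner and conversion caller made the values, which region was counted and whether strand was used in counting is not given in the sources used here. Per the file headers, the all-read values were deposited as CPM, a signal per transcript row, and 100% of them were a whole number of reads within 0.1 read. The conversion columns were deposited as a fraction and are printed in percent. They were read as a rate per convertible base, because 12527 of 29863 transcripts with 1 read had values strictly between 0 and 100%. Converted reads were deposited by the authors as FPKM. How these values scale with gene length was not settled, so that genes are not ordered by them as levels, and the highest and lowest were used only to choose which genes to name. The all-read table had 61177 rows, of which 25396 had no symbol, and 24846 of these had an accession with a RefSeq symbol. That symbol was used only for genes not covered by a row with a symbol, and the remaining such rows were left out.

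Each measure was tested with limma 3.58.1 (R 4.3.3) across all genes, with all 8 libraries in a single model, no covariate and a spread that may follow the level. The last choice was made after seeing that it changed the number of genes called in converted reads, and in both settings 0 members were called. Values were log2(CPM + 1) and log2(FPKM + 1) with a mean of at least 1, and log2(percent + 0.1) with a mean of at least 5 CPM and library medians set equal. Non-overlap of conversion rates uses values relative to the library median. Benjamini-Hochberg adjusted p-values under 0.05 passed. The tests were also run on simulated data with independent noise for each gene and library. Such data lack the pattern between libraries described above, so they cannot show how the tests perform with it. edgeR 4.0.16 and DESeq2 1.42.0 were run on the recovered reads as alternatives, beside other pseudocounts, filters, centring, transcript means, libraries left out and the replicate letter as a block.

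The members and lists were chosen with earlier results of these data known. Genes named were those that passed, the 3 highest and 3 lowest vehicle means per measure, the 2 largest differences in each direction per comparison and the first gene of each role, and of the further pathway genes those with the smallest p in induced mutant against vehicle. Further genes are named for their role or were named after their values were seen. Gene lengths, pseudogenes and snoRNA genes came from GENCODE 29 and promoters from RefSeq (GRCh38.p14), with no coordinates joined to the files. For NOP58, POLR1E, BOP1, NOLC1, RRP12, RRS1 and DDX18 no promoter entry was used here. Summaries and figures were made with matplotlib 3.10.9 and pandas 2.3.3 under Python 3.11.15.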

Additional observations from a re-analysis of the deposited data

How the results depend on the processing

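No member passed in any of 159 alternative fits, over 3 measures and 3 comparisons, edgeR and DESeq2 included. The lowest adjusted p of a member in any of them was 0.112, for WDR43 in converted reads of induced mutant against vehicle with the replicate block, and 0.349, for DDX21, in all reads. The members' median log2 difference in conversion rate stayed below 0 in all 17 fits of induced mutant against vehicle and of induced mutant against induced wild type, while in all reads and converted reads medians of both signs occurred in every comparison.

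The numbers of genes called over all genes moved. On the recovered reads edgeR called 3, 0 and 3 genes in induced mutant against vehicle, induced wild type against vehicle and induced mutant against induced wild type. In all reads by limma, induced mutant against vehicle had 4 calls, with 2 at a filter of 5 CPM, 7 with only the 2 groups in the fit, 75 by DESeq2, 64 without vehicle A and induced wild type C together (a setting chosen after seeing the data) and 0 to 13 with a library left out. Induced wild type against vehicle had 0, with 2 under median centring, 2 by edgeR on DESeq2 size factors, 2 by DESeq2 and 2 without both libraries. Induced mutant against induced wild type had 4, with 13 by DESeq2 and 0 to 4 with a library left out. In converted reads, induced mutant against vehicle had 23, with 1 at a pseudocount of 0.1, 41 under median centring, 2 with only the 2 groups, 0 with no trend of the spread, 85 without both libraries and 0 to 68 with a library left out. Induced wild type against vehicle had 0 to 1 with a library left out, and induced mutant against induced wild type had 0, with 1 at a pseudocount of 0.1, 1 with only the 2 groups, 1 without both libraries and 0 to 3 with a library left out. In conversion rate, induced mutant against vehicle had 0, with 1 at a filter of 1 CPM, 1 with only the 2 groups, 1 without both libraries and 0 to 1 with a library left out. Induced wild type against vehicle had 1 without both libraries and 0 to 1 with a library left out, and induced mutant against induced wild type had 2 at a filter of 1 CPM.

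The members' median in conversion rate for induced mutant against vehicle, -0.09, was -0.0159 with no centring (0.0559 over all genes), -0.0534 without both libraries and -0.104 to -0.0326 with a library left out. For induced wild type against vehicle, -0.03, it was -0.0604 at a filter of 20 CPM, 0.118 with no centring (0.146 over all genes), 0.0456 without both libraries and -0.054 to 0.0198 with a library left out. For induced mutant against induced wild type, -0.06, it was -0.0342 at a filter of 20 CPM, -0.135 with no centring (-0.0881 over all genes), -0.0879 without both libraries and -0.0879 to -0.021 with a library left out. In all reads the members' median of induced wild type against vehicle was -0.17 without both libraries, against -0.13 over all genes. The causes were not tested.

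Same-lettered deviations of induced wild type and vehicle in all reads correlated at 0.29 for A, -0.36 for B and 0.65 for C. Those of induced mutant and induced wild type correlated at -0.36 for A and 0.59 for B. Deviations within so small a group depend on each other, so that these values cannot decide whether the letters pair the libraries. With the replicate letter as a block, all reads had 1 gene called in each comparison with vehicle, converted reads had 149 in induced mutant against vehicle, and the members' median in conversion rate of induced mutant against induced wild type was -0.0838.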
